A study of Mus musculus with 17 samples.

Results

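Solitary WT1 regions are sites on the mouse autosomes where WT1 was found in chromatin with no other WT1 site nearby. They were chosen by position. The peaks of 5 deposited lists were merged into regions wherever they overlapped or touched, and an autosomal region was kept when its midpoint lay more than 150 kb from the midpoint of every other merged region on its chromosome. This left 803 regions out of 41766 in all, or 1.96% of the 40904 autosomal ones. The other 40101 autosomal regions served for comparison. Because the peak positions of all 5 lists chose the regions, their distances, their lists and the strength of their peaks are given as a description, with no test.

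WT1 is a transcription factor with zinc fingers that read G-rich DNA. In the kidney it is found in podocytes, the cells that cover the glomerular capillaries and hold the filtration slit, and it is needed there to keep genes of the slit and of the cytoskeleton on. Its sites lie both at gene starts and at distant enhancers, and enhancers of podocyte genes often come in groups. A region with no neighbour is the opposite arrangement, a single site in a long stretch of the genome without other detected WT1 binding.

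WT1 was profiled by chromatin immunoprecipitation and sequencing in mice aged 7 to 8 weeks, all with the genotype label wildtype, and glomeruli of 2 kidneys went into each glomerular precipitation. Isolated glomeruli of strain BALB/cJ came from mice given adriamycin (ADR, doxorubicin, a drug that injures podocytes; 4 libraries) or phosphate-buffered saline (PBS; 4 libraries). Purified podocytes came from mTmG-Nphs2cre mice, in which the podocin promoter drives the Cre that switches the fluorescent reporter in podocytes, after PBS (3 libraries), 9 days after ADR (2 libraries) and 14 days after ADR (2 libraries). The labels give no day for the glomeruli or for the PBS podocytes, and whole glomeruli also hold endothelial and mesangial cells. Cell identity was not checked against marker genes here.

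Each group was represented by 1 peak list, so no value between groups had a replicate check. Intervals are 95% Wilson intervals and cover the counting error of regions only. The lists held 16634 peaks (ADR glomeruli), 29082 (PBS glomeruli), 23402 (podocytes after PBS), 31949 (day 9) and 6694 (day 14). These lengths set how many regions can be matched between them. Fold enrichment is the authors' value over the caller's background. It is used to rank peaks within a list, and values of different lists are given side by side without a comparison of level. Coordinates are those of mm9. Genes and DNA sequence at the regions were not analysed here.

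The regions stood far apart from any other binding. Their distance to the nearest region had a median of 241 kb, with quartiles of 182 and 352 kb, and reached 2463 kb. Among the other autosomal regions the median was 5.23 kb. On the farther side the median distance was 532 kb, and 9 solitary regions were the first or last on their chromosome. Beyond 500 kb lay 118 of them, and beyond 1000 kb lay 31.

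The regions on either side of the limit were both weak. The solitary region nearest to it, at 29579214 to 29579583 on chromosome 16, was 150024 bp from its neighbour and had 5.09-fold enrichment in ADR glomeruli, 3.66-fold in PBS glomeruli, 3.90-fold in PBS podocytes and 4.21-fold at day 9, with no day 14 peak. The first region left out, at 55209998 to 55210196 on chromosome 9, was 149982 bp from its neighbour and had a peak of 5.82-fold in ADR glomeruli alone. A further 628 autosomal regions lay between 100 and 150 kb from their neighbour.

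The 5 most remote sites were found in 1 or 2 lists each. The most remote one, at 81200976 to 81201357 on chromosome 16, was 2463 kb from the next region and had a single 4.92-fold peak in PBS podocytes. The next, at 60659942 to 60660273 on chromosome 5, was 2447 kb away and had peaks of 7.38-fold in PBS podocytes and 5.19-fold in PBS glomeruli. Thus neither had a peak after ADR. The site at 91994340 to 91994590 on chromosome 14, 2119 kb from its neighbour, had a day 9 peak of 5.28-fold alone. The site at 97430754 to 97431188 on chromosome 2, 1808 kb away, had one of 9.60-fold alone. The site at 101404692 to 101405054 on chromosome 8, 1746 kb away, had one of 6.51-fold alone. Of these 5 sites, 4 rested on 1 list. Other remote sites were found in every list. Of the 118 regions beyond 500 kb, 4 had a peak in all 5 lists, the farthest 1350 kb from its neighbour. The share in 1 list was 46.6% beyond 500 kb, beside 44.5% at 150 to 300 kb.

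Solitary regions often lay next to each other, which the rule itself favours. The neighbour of a solitary region is already beyond the distance limit on that side, so only its other side remains to be met. No expected share was computed, so the counts of runs describe the rule as well as the binding. Of the 803, 416 (51.8%) had another solitary region as the next one along the chromosome, in 171 runs of 2 or more, and 387 had no solitary region next to them. The longest run, singled out after its values were seen, held 7 regions over 5783 kb of chromosome 14 between 81161181 and 86944503. In this run 4 regions had a peak at day 9 alone and 1 in PBS podocytes alone. The last of the run, at 86943951 to 86944503, was the strongest, with 9.34-fold in PBS podocytes, 14.03-fold at day 9 and 23.0-fold in PBS glomeruli, and had no peak in ADR glomeruli or at day 14. Strong and single-list sites thus stood next to each other in this stretch.

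Fewer lists had a peak in solitary than in other regions. A single list alone gave the peak in 359 solitary regions (44.7%, interval 41.3 to 48.2), beside 13753 of the others (34.3%, 33.8 to 34.8). All 5 lists had a peak in 42 solitary regions (5.23%, 3.89 to 6.99), beside 4531 of the others (11.3%, 10.99 to 11.6). Over all autosomal regions, the background of these 2 shares was 34.5% for 1 list and 11.2% for all 5. In between, 160 solitary regions had a peak in 2 lists, 140 in 3 and 102 in 4.

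**Figure D1:**
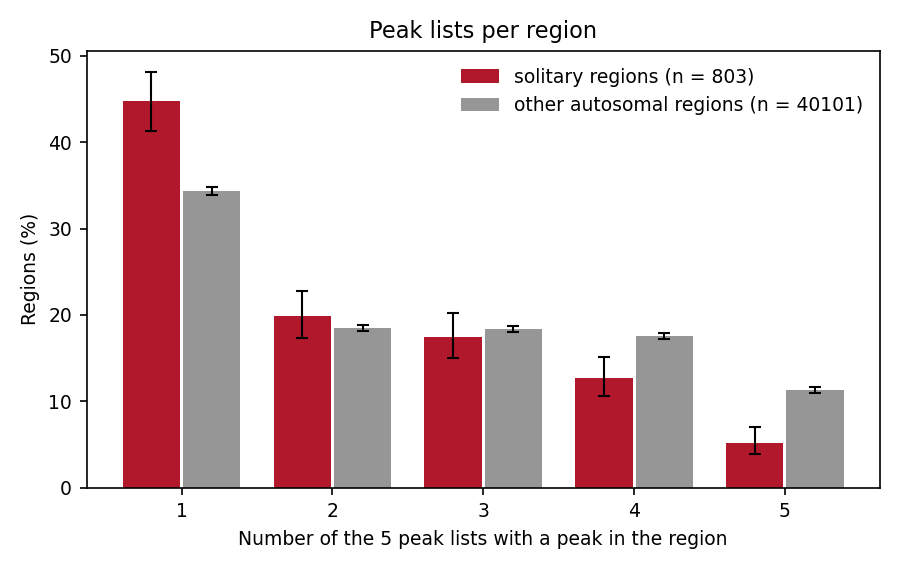
Share of solitary and other autosomal regions (%, y axis) by the number of the 5 peak lists with a peak in the region (x axis), with 95% Wilson intervals as error bars. The solitary share is higher at 1 list (44.7% against 34.3%) and lower at 5 lists (5.23% against 11.3%).

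Each list reached a smaller part of the solitary regions than of the rest. ADR glomeruli had a peak in 227 of the 803 (28.3%, beside 38.7% of the other regions) and PBS glomeruli in 474 (59.0%, beside 67.8%). PBS podocytes had one in 369 (46.0%, beside 55.2%), day 9 podocytes in 555 (69.1%, beside 75.5%) and day 14 podocytes in 92 (11.5%, beside 15.8%). The most frequent single pattern was a peak at day 9 alone, in 175 solitary regions (21.8%) and 16.01% of the others. A peak in PBS glomeruli alone came next, in 110 (13.7%) and 10.97% of the others. Peaks in both PBS lists and at day 9, without the other 2, followed with 94 (11.7%) and 13.2% of the others.

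Regions of one condition or one preparation made up a larger share of the solitary than of the other regions. Peaks in ADR lists alone were seen in 224 of them (27.9%, 24.9 to 31.1), where the background over all autosomal regions was 21.8%. PBS lists alone gave 173 (21.5%, 18.8 to 24.5), with a background of 16.8%. Both shares were thus above the background, and correspondingly 406 (50.6%) had peaks under both treatments, beside 61.6% of the other regions. Most members of these 2 classes were regions of 1 list. The 224 included 175 of day 9 alone and 30 of ADR glomeruli alone. The 173 included 110 of PBS glomeruli alone and 42 of PBS podocytes alone. These shares therefore largely restate the higher share of single-list regions given above. By preparation, 277 (34.5%) had podocyte peaks alone and 174 (21.7%) glomerular peaks alone, beside 25.4% and 17.4% of the others. Injury alone in both models was rare: 13 solitary regions (1.62%, 0.949 to 2.75) had a peak in ADR glomeruli and in podocytes after ADR with none in either PBS list, beside 1.99% of the others. Conversely, both PBS lists without any ADR list gave 21 (2.62%, 1.72 to 3.96), beside 1.89%.

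Solitary regions had a smaller share of the strongest peaks in all 5 lists and, in podocytes, also of the weakest. In glomeruli their median fold enrichment was 7.01 after ADR, beside 7.29 in the other regions, and 6.84 after PBS, beside 7.56. In podocytes it was 6.60 after PBS, beside 6.37, then 6.51 at day 9, beside 6.82, and 6.36 at day 14, beside 6.35. The medians thus lay close together, and in PBS podocytes and at day 14 the solitary one was the higher. The upper quartile was lower for solitary regions in all 5 lists, at 9.25 beside 10.6 in ADR glomeruli, 9.88 beside 11.7 in PBS glomeruli and 9.50 beside 10.2 in PBS podocytes. It was 10.3 beside 11.8 at day 9 and 8.12 beside 9.0 at day 14. The top 10% of each list held 4.41 to 7.61% of its solitary regions, the low value in ADR glomeruli and the high one at day 14, beside 10.2 to 10.3% of its other regions. The weakest quartile held 18.4% of solitary regions in PBS podocytes (24.6% of the others), 19.3% at day 9 (24.7%) and 19.6% at day 14 (24.7%). In glomeruli it held 23.8% after ADR (24.3%) and 25.3% after PBS (24.4%). In all, 626 solitary regions (78.0%, beside 71.3% of the others) lay in the strongest quartile of no list, and 3 in that of all 5.

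**Figure D2:**
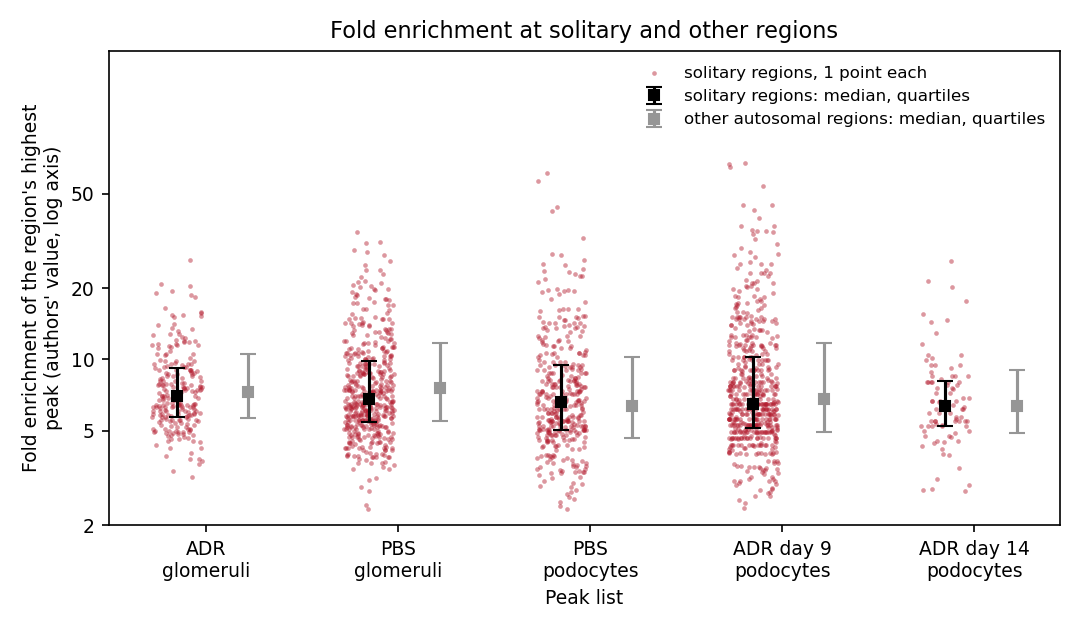
Fold enrichment of the highest peak of each region (authors' value, log axis) in each of the 5 peak lists. Points are solitary regions and squares with bars are the median and quartiles, black for solitary and grey for other autosomal regions; the medians are close (7.01 and 7.29 in ADR glomeruli, for example), while the upper quartile is lower for solitary regions in every list.

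In 4 of the 5 lists, solitary regions found in more lists had the higher median enrichment at each step. In PBS glomeruli, the median fold enrichment of solitary regions was 5.85 for those in 1 list, 6.04 in 2, 7.27 in 3, 8.92 in 4 and 13.6 in 5. At day 9 the same medians were 5.59, 6.82, 7.13, 8.15 and 16.8. At day 14 the median was 7.05 for 34 regions in 4 lists and 6.56 for the 42 in 5, against that order. Among regions in 1 list, the solitary median was 5.85 beside 5.44 for the others in PBS glomeruli and 5.59 beside 5.28 at day 9, and it was also the higher in ADR glomeruli and PBS podocytes. At day 14 it was 3.90 over 2 regions, beside 4.60 over 4. Among regions in all 5 lists the solitary median was the lower in every list, with 13.6 beside 15.7 in PBS glomeruli and 16.8 beside 20.7 at day 9.

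A few solitary regions were among the strong WT1 sites of the series. The strongest, at 65466617 to 65467439 on chromosome 6, had 26.3-fold enrichment in ADR glomeruli, 31.2-fold in PBS glomeruli and, in podocytes, 43.9-fold after PBS, 67.4-fold at day 9 and 25.9-fold at day 14. It was the strongest solitary region in ADR glomeruli and at days 9 and 14, lay at a mean percentile of 99.0 over the 5 lists, and had its nearest neighbour 276 kb away. A second, at 42250479 to 42251231 on chromosome 17, had 8.38-fold in ADR glomeruli, 30.8-fold in PBS glomeruli and, in podocytes, 61.1-fold after PBS, 66.5-fold at day 9 and 17.7-fold at day 14. It was the strongest solitary region of PBS podocytes, while its ADR glomerular peak lay between the solitary median of 7.01 and upper quartile of 9.25.

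Another strong site had no peak in ADR glomeruli at all. At 19889270 to 19890030 on chromosome 1, 755 kb from its neighbour, it had 28.8-fold enrichment in PBS glomeruli and, in podocytes, 56.6-fold after PBS, 64.6-fold at day 9 and 21.4-fold at day 14. The strongest solitary region of PBS glomeruli had no peak in PBS podocytes. At 123488881 to 123489486 on chromosome 3, it had 11.8-fold in ADR glomeruli, 34.3-fold in PBS glomeruli and 4.69-fold at day 9, and none at day 14. A site at 66483410 to 66484980 on chromosome 7 was among the 3 strongest of ADR glomeruli, with 20.8-fold after ADR and 27.5-fold after PBS, beside podocyte peaks of 9.29-fold after PBS, 8.01-fold at day 9 and 3.15-fold at day 14. Also strong in ADR glomeruli, the site at 53659087 to 53659539 on chromosome 14 had 20.4-fold there, 14.9-fold in PBS glomeruli, 9.30-fold at day 9 and 5.72-fold at day 14, with no PBS podocyte peak. Another strong site at day 14, at 171241575 to 171242172 on chromosome 2, had no ADR glomerular peak, 19.2-fold in PBS glomeruli and, in podocytes, 32.6-fold after PBS, 33.7-fold at day 9 and 20.3-fold at day 14.

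The 42 solitary regions with a peak in all 5 lists ranged widely in strength. Their enrichment ran from 3.21 to 26.3-fold in ADR glomeruli (median 9.33), from 4.84 to 31.2-fold in PBS glomeruli (13.6) and from 4.80 to 61.1-fold in PBS podocytes (13.7). It ran from 5.38 to 67.4-fold at day 9 (16.8) and from 2.83 to 25.9-fold at day 14 (6.56). After the sites on chromosomes 6 and 17, the highest mean percentiles belonged to 3 more. That at 31843610 to 31844399 on chromosome 8 had 15.1-fold in ADR glomeruli, 26.0-fold in PBS glomeruli and, in podocytes, 22.9-fold after PBS, 44.8-fold at day 9 and 9.47-fold at day 14. That at 90793426 to 90794025 on chromosome 3 had 11.5-fold, 28.4-fold, 13.2-fold, 39.5-fold and 10.4-fold in the same order of lists. That at 18748094 to 18748725 on chromosome 15, 764 kb from any other region, had 14.1-fold, 17.8-fold, 22.5-fold, 22.6-fold and 8.53-fold. Of the 118 regions beyond 500 kb, 4 (3.39%, 1.33 to 8.39) were in all 5 lists and 55 (46.6%, 37.9 to 55.6) in 1 list.

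Summits of different lists lay close together in solitary as in other regions. Merging limits how far apart they can be, since peaks share a region when they overlap or touch. The offsets are therefore a description and no independent check of agreement between lists. Where 2 lists each had 1 peak in a solitary region, the median distance between their summits was 15.5 to 30 bp over the 10 pairs of lists, beside 17 to 30 bp for the other regions. ADR and PBS glomeruli were the closest pair, with summits within 100 bp in 169 of 174 regions (97.1%, 93.5 to 98.8), beside 93.8% of the others. The lowest share among solitary regions was 86.2% (79.8 to 90.8), between ADR glomeruli and day 9 podocytes, beside 88.2%. In 9 of the 10 pairs the share of the other regions lay within the interval of the solitary ones. The exception was day 14 with day 9, where 89.7% (81.5 to 94.5) of solitary summits lay within 100 bp, beside 94.8%.

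Solitary peaks had the smaller median width in all 5 lists. Median peak width was 264 bp in ADR glomeruli (305 bp in the other regions) and 281 bp in PBS glomeruli (336 bp). In podocytes it was 445 bp after PBS (474 bp), 414 bp at day 9 (452 bp) and 339 bp at day 14 (390 bp). In the strongest quartile of ADR glomeruli the widths were 396 and 437 bp, and in that of day 9 podocytes 569 and 663 bp. More than 1 peak of a list fell in 0 solitary regions of ADR glomeruli (3.73% of the other regions), 1 of PBS glomeruli (0.211%, beside 2.79%) and 0 of PBS podocytes (beside 1.60%). It did so in 2 regions at day 9 (0.36%, beside 1.36%) and in 2 at day 14 (2.17%, beside 1.88%), so at day 14 the solitary share was the higher.

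Ranks of enrichment were correlated between lists in solitary as in other regions, with a lower coefficient for solitary regions in 9 of the 10 pairs of lists. Across regions with a peak in both lists, Spearman's rho between day 9 and PBS podocytes was 0.76 over 297 solitary regions and 0.81 over 19300 others. Between ADR and PBS glomeruli it was 0.45 over 175 and 0.51 over 12837. Between day 14 and day 9 podocytes it was 0.76 over 89 and 0.82 over 6313. The widest gap was between ADR glomeruli and PBS podocytes, with 0.26 over 127 solitary regions and 0.41 over 11041 others. PBS glomeruli and day 14 podocytes went the other way, with 0.48 over 77 and 0.40 over 5988. These are descriptions across regions, which are not replicates, and the 2 lists of a pair share the sequence and mappability of each region.

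Setting ADR beside PBS glomeruli asks which WT1 sites were detected after injury. A smaller share of solitary than of other sites had a peak in both glomerular lists. Of 526 solitary regions with a peak in either list, 52 had one in ADR alone (9.89%, beside a background of 9.04% of all autosomal regions with a peak in either), 299 in PBS alone (56.8%, background 48.2%) and 175 in both (33.3%, background 42.8%). The share in ADR alone was near the background, and those in PBS alone and in both were above and below it. Of the 227 solitary regions of ADR glomeruli, 175 had a PBS peak (77.1%, 71.2 to 82.1), beside 82.6% of the other ADR regions. Of the 474 of PBS glomeruli, the same 175 had an ADR peak (36.9%, 32.7 to 41.4), beside 47.2%. With the longer list trimmed by p-value to the length of the shorter, 46.3% of ADR and 46.5% of PBS solitary regions were matched. The other regions then gave 61.2% and 60.1%. With a −log10 q of 10 or more, 24.1% of PBS solitary regions were matched, beside 37.15% of the others. In bulk glomeruli, fewer podocytes and less WT1 on the chromatin of each cannot be told apart.

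In the strongest quartile of enrichment the solitary share was the lower in both directions. In the weakest it was near that of the other regions for PBS and above it for ADR. Among PBS glomerular regions in the weakest quartile of the list, 36 of 120 solitary regions (interval 22.5 to 38.7%) and 31.1% of other regions had an ADR peak. In the 2 quartiles between, 32.1% of solitary regions did (25.2 to 39.7), beside 35.3% of the others, and 41.0% (32.5 to 50.1), beside 51.5%. In the strongest quartile, 41 of 81 solitary regions did (50.6%, 39.95 to 61.2), beside 69.7% of the others. Among ADR glomerular regions, a PBS peak was found in 77.8% of solitary regions of the weakest quartile (65.1 to 86.8), beside 69.0% of the others, and in 65.2% of the next (53.1 to 75.5), beside 76.9%. In the 2 upper quartiles it was found in 83.1% beside 87.9% and, in the strongest, in 85.7% (72.2 to 93.3) beside 95.9%. When peaks of both lists had to reach a −log10 q of 10, the share of solitary ADR regions with a PBS peak was 62.2% over 82 regions, beside 84.8% of the others, a wider gap than without that threshold.

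Single sites illustrate both directions in glomeruli. The strongest solitary ADR peak without a PBS glomerular one, at 45625297 to 45625942 on chromosome 14, had 15.6-fold enrichment in ADR glomeruli and 16.4-fold at day 9, and no peak in either PBS list or at day 14. The next, at 72335776 to 72336091 on chromosome 13, had 15.4-fold in ADR glomeruli and no peak in any other list. In the other direction, the chromosome 1 site given above came first. A site at 47989864 to 47990511 on chromosome 11 followed, with no peak in ADR glomeruli, 25.05-fold in PBS glomeruli and, in podocytes, 25.1-fold after PBS, 36.5-fold at day 9 and 9.47-fold at day 14. Both of these PBS sites were thus detected in podocytes 9 and 14 days after ADR, in the other strain.

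**Figure D3:**
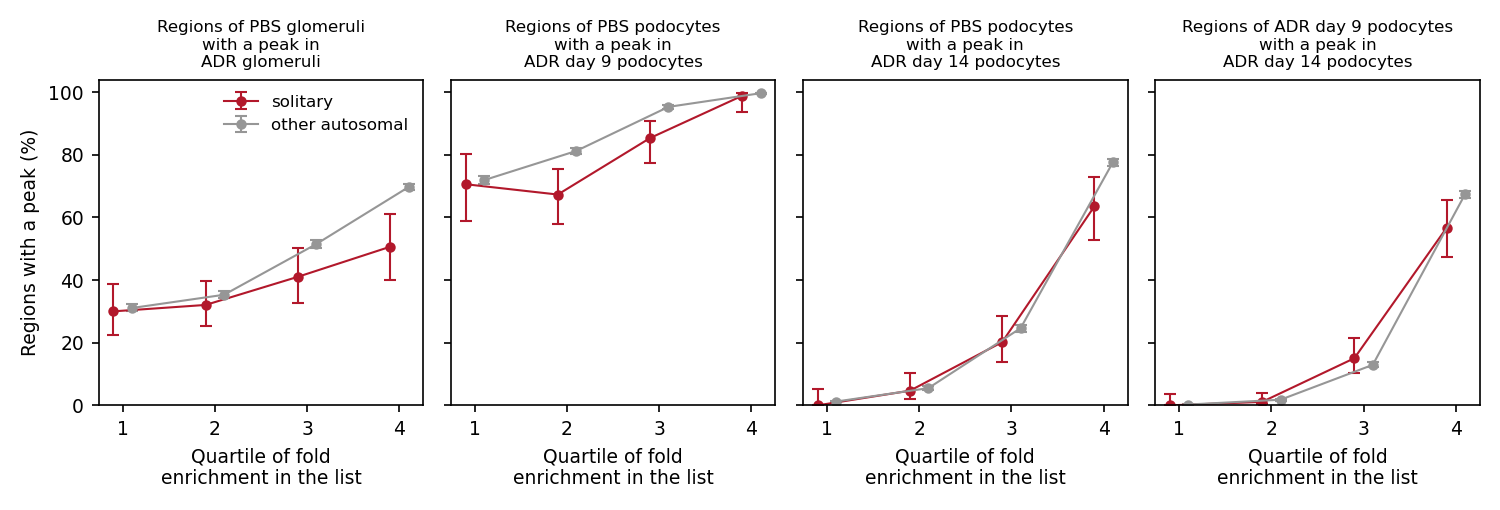
Share of regions of one list with a peak in a second list (%, y axis) by quartile of fold enrichment in the first (x axis, 4 is the strongest), for solitary (red) and other autosomal regions (grey), with 95% Wilson intervals. Shares are highest in quartile 4 in all 4 panels, and in the strongest quartile of PBS glomeruli 50.6% of solitary and 69.7% of other regions had an ADR peak.

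For purified cells the same question was put by setting day 9 after ADR beside PBS. Solitary regions had more day 9 peaks than PBS peaks, 555 and 369. Of 627 with a peak in either list, 258 had one at day 9 alone (41.1%, background 33.3%), 72 in PBS alone (11.5%, background 8.67%) and 297 in both (47.4%, background 58.1%). Of the day 9 regions 53.5% (49.4 to 57.6) had a PBS peak, beside 63.8% of the others, and of the PBS regions 80.5% (76.1 to 84.2) had a day 9 peak, beside 87.1%. Each list alone was thus above its background and the shared class below. The shared class was below its background in all 5 comparisons. Of the 258 regions, 175 had a peak in no other list, and of the 72, 42 had none. These shares therefore partly restate the higher share of single-list regions given above.

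Sites with a peak in only 1 list of this pair had the lower median enrichment. For solitary PBS podocyte regions it was 5.07-fold without a day 9 peak and 7.18-fold with one. In the other regions the medians without and with a match were 4.52 and 6.91-fold in PBS podocytes, and 5.39 and 8.81-fold at day 9. Solitary day 9 regions without a PBS podocyte peak had a median of 5.96-fold enrichment, beside 7.95-fold for those with one. The strongest, at 76383627 to 76384362 on chromosome 5, had 25.4-fold at day 9 and 9.88-fold in ADR glomeruli, with no peak in PBS glomeruli, PBS podocytes or at day 14. The next, at 17214833 to 17215493 on chromosome 19, had 19.8-fold at day 9, 6.42-fold at day 14 and 7.75-fold in ADR glomeruli, and none after PBS in either preparation. Both sites were therefore detected only after ADR, in glomeruli as in podocytes.

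The strongest solitary PBS podocyte site without a day 9 peak, at 125150166 to 125150593 on chromosome 10, had 12.6-fold in PBS podocytes and 7.56-fold in PBS glomeruli. The next, at 161202682 to 161203135 on chromosome 2, had 9.27-fold and 5.76-fold in the same lists. Neither had a peak in any ADR list. In the strongest quartile of PBS podocytes 84 of 85 solitary regions had a day 9 peak (98.8%, 93.6 to 99.8), beside 99.6% of the others. In the next to weakest quartile, 67.3% did (57.9 to 75.4), beside 81.2%.

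The comparisons with day 14 podocytes concerned few solitary regions, since that list was the shortest. Of 380 solitary regions with a peak at day 14 or in PBS podocytes, 11 had one at day 14 alone (2.89%, background 1.06%), 288 in PBS alone (75.8%, background 71.8%) and 81 in both (21.3%, background 27.1%). Of the 369 PBS regions, 22.0% (18.0 to 26.5) had a day 14 peak, beside 27.5% of the others, and of the 92 day 14 regions 88.0% (79.8 to 93.2) had a PBS peak, beside 96.3%. Trimmed to the shorter length, the lists gave 66.7% and 56.5% for these 2 solitary shares, so both depended on list length. The other regions then gave 71.2% and 72.8%. In the strongest quartile of PBS podocytes, untrimmed, the share with a day 14 peak was 63.5% (52.9 to 73.0), beside 77.55%, and in the weakest it was 0 of 68 (upper bound 5.35%), beside 1.21%. In both kinds of region, a day 14 peak was thus most frequent where the PBS peak was strongest.

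Of 558 solitary regions with a peak at day 14 or day 9, 3 had one at day 14 alone (0.538%, 0.183 to 1.57; background 0.0357%), 466 at day 9 alone (83.5%, background 79.2%) and 89 in both (15.95%, background 20.8%). The 3 were among 11 such autosomal regions in all. That at 68305055 to 68305310 on chromosome 10 had a single 5.01-fold peak, and that at 26743979 to 26744264 on chromosome 1, named because so few were found, a single 2.79-fold peak. The third, at 25395401 to 25395923 on chromosome 8, had 5.09-fold in ADR glomeruli, 7.75-fold in PBS glomeruli, 7.86-fold in PBS podocytes and 5.01-fold at day 14, with no peak at day 9. A count of 3 leaves a wide interval. Of the day 14 solitary regions 96.7% (90.8 to 98.9) had a day 9 peak, beside 99.9% of the others. After trimming these shares were 58.7% beside 79.5%. Of the day 9 solitary regions 16.04% (13.2 to 19.3) had a day 14 peak, beside 20.9% of the others. After trimming the shares were 79.4% beside 77.4%.

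Strong solitary sites could still lack a day 14 peak. At 67447719 to 67448303 on chromosome 15 the enrichment was 12.1-fold in PBS podocytes, 28.5-fold at day 9 and 13.04-fold in PBS glomeruli. At 106965495 to 106966131 on chromosome 9 it was 26.2-fold in PBS podocytes, 15.2-fold at day 9 and 14.3-fold in PBS glomeruli. At 107639438 to 107640050 on chromosome 12 it was 19.6-fold in PBS podocytes, 10.5-fold at day 9 and 18.0-fold in PBS glomeruli. None of these 3 had a peak in ADR glomeruli or at day 14. The strongest day 14 peaks without a PBS podocyte peak were the chromosome 19 site above and one at 93124706 to 93125216 on chromosome 11, with 6.19-fold at day 14 and 11.5-fold at day 9.

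Over the 3 podocyte lists, 629 solitary regions had a peak. Day 9 alone was their largest class, with 249 (39.6%, 35.8 to 43.5; 32.4% of the other podocyte regions), ahead of PBS and day 9 without day 14, with 217 (34.5%, 30.9 to 38.3; 39.9%). In the other regions the order of these 2 classes was reversed. All 3 lists shared 80 (12.7%, beside 18.4%) and PBS alone had 71 (11.3%, beside 8.61%).

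Purified podocytes and whole glomeruli, both after PBS, differed in strain and in preparation together. Of 579 solitary regions with a peak in either, 105 had one in podocytes alone (18.1%, background 13.5%), 210 in glomeruli alone (36.3%, background 29.6%) and 264 in both (45.6%, background 56.9%). Of the podocyte regions 71.5% (66.7 to 75.9) had a glomerular peak, beside 81.0% of the others, and of the glomerular regions 55.7% (51.2 to 60.1) had a podocyte peak, beside 66.0%. In the strongest quartile the shares were 92.9% beside 97.4% and 92.6% beside 95.5%.

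The strongest solitary podocyte sites without a PBS glomerular peak were at 39998220 to 39998825 on chromosome 15, with 16.3-fold in PBS podocytes, 7.83-fold in ADR glomeruli and 6.51-fold at day 9, and at 115178880 to 115179517 on chromosome 12, with 14.7-fold in PBS podocytes and 7.75-fold at day 9. In the other direction, the chromosome 3 site of 34.3-fold was followed by one at 98260571 to 98261119 on chromosome 4, with 13.4-fold in ADR glomeruli, 21.2-fold in PBS glomeruli and 17.3-fold at day 9. Both of these glomerular sites had a day 9 podocyte peak, that of the chromosome 3 site being 4.69-fold. The day 9 list also differs from PBS podocytes in treatment. Why no peak was called in PBS podocytes was not tested.

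The share of regions found in 1 list was higher in each successive bin of distance up to 300 kb, not at 150 kb alone. It was 32.7% for regions within 5 kb of the nearest one, 34.7% at 5 to 20 kb, 36.7% at 20 to 50 kb, 38.4% at 50 to 100 kb and 40.4% at 100 to 150 kb. Among solitary regions it was 44.5% at 150 to 300 kb, 44.0% at 300 to 500 kb and 46.6% beyond. The share in all 5 lists was 13.2% within 5 kb, 5.25% at 100 to 150 kb and 5.15% at 150 to 300 kb. Solitary regions therefore continued a gradient, with intervals that overlapped those of the regions at 100 to 150 kb.

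The match after ADR was also followed over distance in each preparation. The share of PBS glomerular regions with an ADR peak was 47.7% within 5 kb and 44.2% (39.3 to 49.3) at 100 to 150 kb. Among solitary regions it was 38.7% (33.6 to 44.0) at 150 to 300 kb, 36.9% (27.4 to 47.6) at 300 to 500 kb and 27.1% (17.4 to 39.6) beyond, the last over 59 regions. The share of PBS podocyte regions with a day 9 peak was 88.9% within 5 kb, 77.3% at 100 to 150 kb and, among solitary regions, 80.5%, 82.9% and 77.4% in the same 3 bins. For a day 14 peak the share was 30.1% within 5 kb and 16.1% (12.4 to 20.7) at 100 to 150 kb. It was higher than the latter in all 3 solitary bins, with 22.0% (17.2 to 27.5) at 150 to 300 kb. At 300 to 500 kb it was 16 of 70 (22.9%, 14.6 to 33.95), and beyond 11 of 53 (20.8%, 12.0 to 33.5). The solitary bins were thus lowest in glomeruli. In podocytes they lay at the level of the regions at 100 to 150 kb for day 9, and above it for day 14. In both preparations the intervals of the solitary bins overlapped those of the regions at 100 to 150 kb. Whether the 2 preparations differ in this was not tested.

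**Figure D4:**
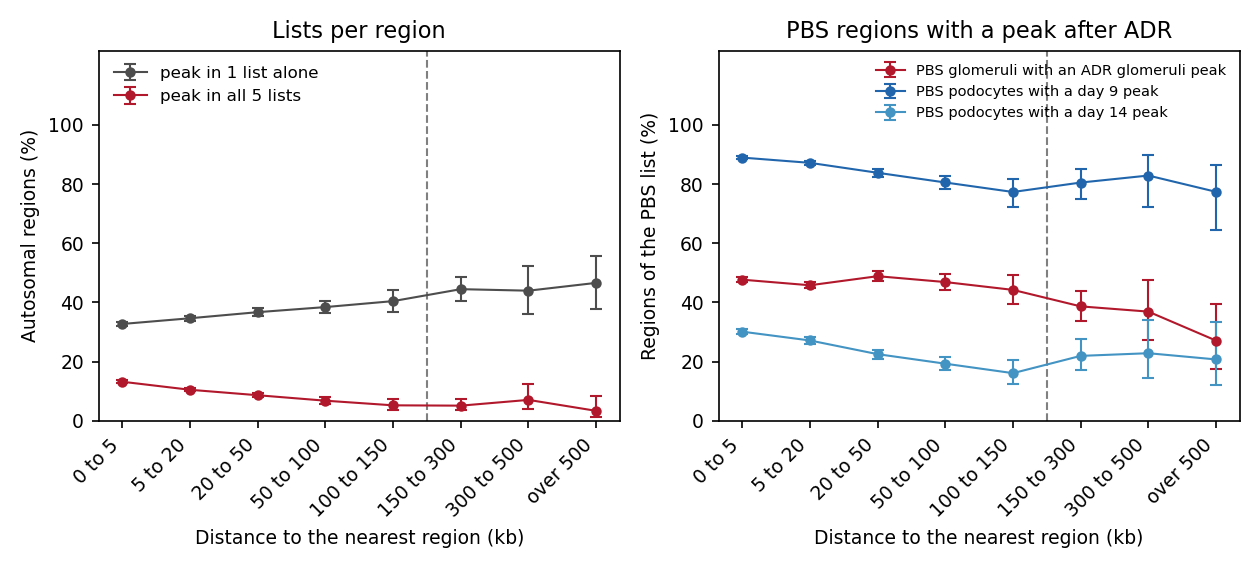
Left, share of autosomal regions (%) with a peak in 1 list alone or in all 5; right, share of regions of a PBS list (%) with a peak after ADR; both by distance to the nearest region in kb (x axis), with 95% Wilson intervals. Regions right of the dashed line are solitary: their share in 1 list is 44.0 to 46.6%, and the share of PBS glomerular regions with an ADR peak is 27.1% beyond 500 kb.

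Solitary regions made up more of the binding on gene-poor autosomes. Their share of an autosome's regions ran from 1.13% on chromosome 11 (34 of 3014) to 3.56% on chromosome 12 (57 of 1603). On the 6 autosomes with the fewest protein-coding genes per Mb (18, 12, 1, 3, 13 and 14) 306 of 11378 regions were solitary (2.69%, 2.41 to 3.003). On the 6 with the most (7, 11, 19, 17, 2 and 9) 206 of 14276 were (1.44%, 1.26 to 1.65). Per 10 Mb the 2 sets held 3.77 and 2.80 solitary regions. All regions together were sparser on the gene-poor autosomes, with 12.2 per Mb on chromosome 14 and 24.7 on chromosome 11, and a sparser chromosome leaves longer gaps by construction, so these shares describe the rule as well as the binding.

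**Figure D5:**
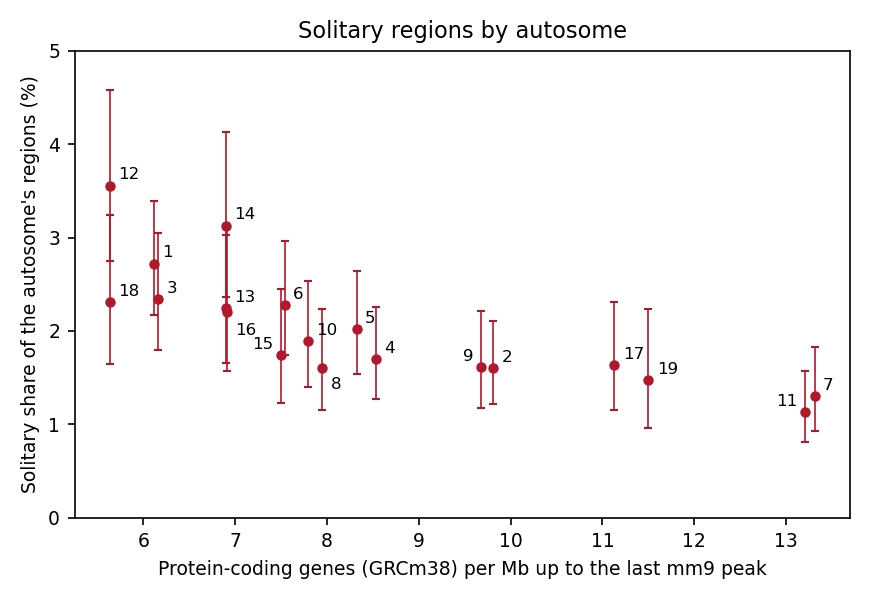
Share of each autosome's regions that are solitary (%, y axis, 95% Wilson intervals) against protein-coding genes per Mb (x axis), 1 labelled point per autosome. Chromosomes 12 and 14 have the highest shares (3.56% and 3.13%), and chromosomes 11 and 7 the lowest (1.13% and 1.30%).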

How the data were processed

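The submitters' processing notes name Bowtie 0.12.7, MACS2 and the build mm9. Replicate pooling, control and cutoff: not given in the sources used here. For every immunoprecipitation group (2 to 4 libraries) the authors deposited 1 narrowPeak list, and the 2 glomerular input libraries have no list of their own. The fold enrichment (a ratio over background), the −log10 p and −log10 q of a peak, and the integer score (not used) are the authors' deposited values; the smallest −log10 q was 1.31 to 2.25 by list. Read depth is not recorded in the lists, so list length was used instead.

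Peaks that overlapped or touched were merged across lists. The peak of highest fold enrichment represented a list in a region, and quartiles and percentiles were taken over all peaks of a list. The members were found by the rule given at the start of the report, and the members, classes and comparisons were chosen with earlier results of these data known. For trimming, lists were ranked by −log10 p. Presence or absence of a peak in a list was the call; background shares include the solitary regions. Regions named were the 3 strongest per list, the 5 most remote, the 5 with the highest mean percentile in all 5 lists, for each direction of the 5 comparisons the 2 strongest with no match, and those at the limit. The merging and distance code was checked on 5 simulated data sets. Gene counts per chromosome are from the RefSeq GRCm38.p6 annotation, divided by the last mm9 peak end; its positions were not used. The planned work on genes and WT1 motifs was not run, since no mm9 annotation or sequence was used here. Tables were made with pandas 2.3.3 and numpy 2.4.6 under Python 3.11.15, intervals with scipy 1.17.1, and plots with matplotlib 3.10.9.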

Additional observations from a re-analysis of the deposited data

Results flagged for a closer look

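The number of solitary regions with a peak was lower after ADR in glomeruli. In podocytes it was higher at day 9 and lower at day 14. In glomeruli 227 solitary regions had an ADR peak and 474 a PBS peak, a ratio of 0.479. In podocytes 555 had a day 9 peak and 369 a PBS peak, a ratio of 1.5. The other autosomal regions gave 0.571 and 1.37. These directions were not tested, since a group has 1 list. At day 14 the ratio to PBS podocytes was 0.249, beside 0.285 in the other regions, so the podocyte lists themselves went both ways.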

How the results depend on the processing

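The number of solitary regions was 1431 with a limit of 100 kb and 518 with 200 kb. It stayed between 799 and 956 with gaps between edges, a −log10 q of at least 10 before merging, merging up to 1 kb, X and Y included, and each list left out. Without the day 9 list, 628 of the 803 members stayed solitary, and with the stricter q 437 did. A member with no peak left drops out by construction, such as the 175 with a peak at day 9 alone. These 2 counts therefore do not check how isolated the members are. The shares in 1 list (42.8 to 45.9%) and in all 5 lists (5.03 to 5.60%) and the median enrichments stayed within their intervals. Trimming both lists to the length of the shorter moved all 10 shares of matched regions. Of ADR glomerular regions 46.3% then had a PBS peak, and of PBS ones 46.5% an ADR peak. Of day 9 regions 65.8% had a PBS podocyte peak and of PBS ones 65.3% a day 9 peak. Of day 14 regions 56.5% had a PBS and 58.7% a day 9 peak, and conversely 66.7% of PBS and 79.4% of day 9 regions had a day 14 peak. For PBS podocytes and PBS glomeruli the shares were 61.5% and 62.7%. The stricter q moved 5: 62.2% and 24.1% between ADR and PBS glomeruli, 100% of day 14 regions with a PBS peak, and 60.7% and 69.8% between PBS podocytes and PBS glomeruli. The cause was not tested, beyond the shorter lists themselves. Summits within 200 bp and the other limits moved none. The solitary minus the other share ran from −10.3 to −3.13 percentage points as reported. It ran from −20.8 to 2.05 with trimming and from −22.6 to 2.29 with the stricter q. The solitary share was below the other share in all 10 directions as reported and in 9 of 10 with trimming and with the stricter q. The exceptions were day 9 regions with a day 14 peak after trimming (79.4% beside 77.4%) and day 14 regions with a PBS peak at the stricter q (100% beside 97.7%). No paired analysis was possible because only 1 peak list stands for a group. Leaving out replicates could not be done either. The planned change of the window for motifs was not run.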

Other observations

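On the X chromosome, which the rule leaves out, 62 of 830 regions (7.47%, 5.87 to 9.46) lay more than 150 kb from any other, beside 1.96% of autosomal regions. The X chromosome held 4.99 regions per Mb, beside 12.2 to 24.7 on the autosomes, and a sparser chromosome leaves longer gaps by construction. Of the 62, 24 (38.7%) had a peak in 1 list and 4 (6.45%) in all 5, beside 44.7% and 5.23% of autosomal solitary regions. An ADR glomerular peak was found in 13, a PBS glomerular peak in 35 and a day 9 peak in 49. Among autosomal solitary regions these lists had a peak in 28.3%, 59.0% and 69.1%. The same shares over all X regions are not given here, so these counts are a description only. The most remote, at 41669790 to 41670331, was 2164 kb from the next region and had an 8.06-fold peak at day 9 alone. The sex of the animals is not given in the labels.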
